A study of Mus musculus with 20 samples.

Results

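The data described here ask how the difference between CD5hi and CD5lo naive CD4 T cells was altered by resting the cells away from their tissue. CD5hi and CD5lo are the 15% of naive cells with the highest and the lowest surface CD5. The members are the 16 libraries of 4 groups, out of 20 libraries in the series, with 4 biological replicates per group according to the labels. Rested CD5hi and rested CD5lo cells were kept for 22 hours in dissociated culture with interleukin 7 (IL-7) at 10 ng per mL, while fresh CD5hi and fresh CD5lo cells went into lysis right after the sort. Mice were C57BL/6 and 8 to 12 weeks old, males and females pooled according to the labels, and their lymph nodes and spleens gave the cells. The sort kept live TCRb+ CD4+ CD8- cells that were low for CD44 and negative for a Foxp3-GFP reporter, and its dump channel removed cells with B220, CD11c, F4/80, NK1.1, CD11b, Ly6G or the activation marker CD69. The 4 libraries of Foxp3-GFP+ regulatory T cells (Treg) were left out of the fit.

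For each gene, the CD5 gap is the log2 level in CD5hi cells minus that in CD5lo cells. The interaction is the rested gap minus the fresh gap: a positive value means that CD5hi cells stood higher relative to CD5lo cells after resting than before it. Levels are in CPM, the count of a gene relative to the scaled total of its library. Rested pair 1 is the rested CD5hi and the rested CD5lo library numbered 1, and the other 7 pairs are named in the same way. The interaction was estimated within these pairs with edgeR's quasi-likelihood test, and a gene is called where its p, adjusted by the Benjamini-Hochberg method over 12797 genes, is under 0.05.

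CD5 is a surface receptor that dampens signalling by the T cell receptor (TCR), and its level on a naive cell is set by how strongly that cell is stimulated by self-peptides on MHC molecules. Such tonic stimulation keeps low levels of TCR-induced transcription factors and feedback inhibitors in cells that have not met antigen. In dissociated culture this contact is withdrawn, and IL-7, a survival cytokine of naive T cells that signals through STAT5, is supplied.

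The rested CD5hi libraries held 38211406 to 50654225 counts each and the rested CD5lo libraries 43429158 to 64477566. The fresh CD5hi libraries held 43770193 to 59065224 and the fresh CD5lo libraries 51060992 to 58269055. The labels were checked on Cd5 itself. It measured 450, 446, 479 and 432 CPM in rested CD5hi cells against 86.7, 87.2, 97.2 and 99.3 CPM in rested CD5lo cells. In fresh cells it measured 965, 976, 890 and 1039 CPM in the CD5hi libraries against 142, 155, 133 and 151 CPM in the CD5lo libraries. In either state every CD5hi library lay above every CD5lo library. The rested and fresh libraries differed in more than the culture. Transcripts of 4 Y-linked genes summed to 321 to 328 CPM in rested pair 3 and to 0.0201 to 0.0875 CPM in rested pairs 1, 2 and 4, against 361 to 399 CPM in all fresh libraries. Xist stood at 741 to 1156 CPM in rested pairs 1, 2 and 4, against 0.244 to 0.712 CPM in fresh libraries. Although the labels describe pooled sexes, no library held both kinds of transcript at these levels. The libraries of a pair shared this pattern, so each gap compares libraries of like sex, but for rested pairs 1, 2 and 4 sex and resting cannot be told apart in the interaction. Rested pair 4 also stood apart in its gaps, with a median distance of 0.18 (log2) from the mean of the other 3 rested pairs, against 0.09 to 0.13 for rested pairs 1 to 3 and 0.08 to 0.10 for the fresh pairs. Markers of CD4 T cells (Cd3d, Cd3e, Cd3g, Cd4, Cd5, Cd28 and Lck) summed to 2920 to 3100 CPM in rested and 3760 to 4520 CPM in fresh libraries. This sum holds Cd5, the sorted marker, so its range also reflects the sort. Markers of myeloid and dendritic cells summed to 6.66 to 12.5 CPM in rested and 25.2 to 38.5 CPM in fresh libraries. Those of B cells summed to 12.7 to 28.9 CPM in rested and 15.3 to 20.4 CPM in fresh libraries. No member of the myeloid or B cell lists was called for the interaction, and the part of these cells in the results was not tested. In such bulk samples, fewer cells of a kind and less RNA per cell cannot be told apart.

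The CD5 gap differed between rested and fresh cells in 354 genes, which is 2.77% of those tested, and the prevailing change was a gap nearer to 0 after resting. Of these genes 241 (1.88% of those tested) had a negative and 113 (0.883%) a positive interaction. Among the 241, 219 had been higher in fresh CD5hi than in fresh CD5lo cells, with a median rested gap of 0.07 against a median fresh gap of 0.42. Among the 113, 95 had been lower in fresh CD5hi cells, with a median rested gap of 0.12 against a median fresh gap of -0.25. The fresh gap is part of the interaction, so choosing genes by the sign of the interaction favours these fresh signs. These counts and medians are therefore a description and no separate support. The shares over all genes of like interaction sign were not computed. The gap kept its sign and was smaller after resting in 190 of the 354 genes, kept its sign and was larger in 40, and had another sign in 124. Over all genes tested the same counts were 4720, 4208 and 3869. The median interaction over all genes tested was -0.002. The changes were mostly modest: 84 of the 354 reached 1.5-fold and 29 reached 2-fold. In 348 of the 354 the 4 rested gaps did not overlap the 4 fresh gaps, as in 10.0% of all genes tested.

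The number of calls depends on the pairing and on the rested libraries. Without the replicate block 42 genes were called (11 positive, 31 negative), all of them among the 354. Leaving out rested pair 4 gave 824 calls, which held 351 of the 354, whereas leaving out fresh pair 3 gave 204, of which 201 were among the 354. With the libraries that held Y-linked transcripts alone, which leaves rested pair 3 against the 4 fresh pairs, 444 genes were called and 186 of them were among the 354. That single pair was assumed to vary like the fresh pairs. Named genes lost in that fit were Nr4a1, Fosb, Il2ra, Ikzf2, Ctla4, Adamts14, Cacnb3, Nav2, Gucy1a3, Tnfrsf9, Nrp1, Iigp1, Bcl2a1b, Nr1d1, Cars and Slc7a5. The part of sex in these losses was not tested. The sign of the interaction was the same for all 354 genes in 19 of the 21 alternatives, and for the 352 and 353 of them that were tested in the other 2, a minimum of 1 CPM and halved counts. Among the 21, leaving out rested pair 3 and keeping only the rested pairs without Y-linked transcripts are the same fit under 2 names. Of the 63 called genes named here, 17 were also called without the replicate block: Cd5, Ctla4, Ubash3b, Itih5, Mtap6, Qrfp, Fibcd1, Adamtsl4, Ndrg1, Ikzf3, Ikzf4, Sypl, Il2rb, Il10ra, Gprin3, Gbp11 and Rxra. The median SD of the 4 gaps was 0.14 in rested and 0.09 in fresh pairs.

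**Figure D1:**
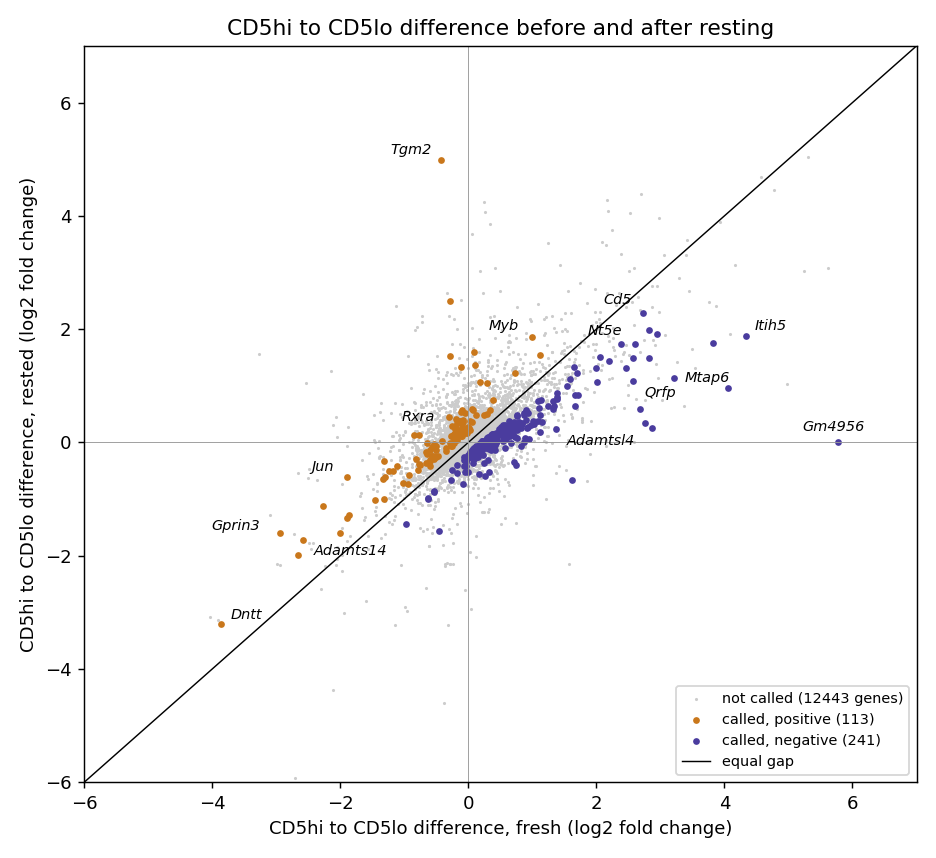
CD5 gap (log2 fold change, CD5hi over CD5lo) in rested cells on the vertical axis against fresh cells on the horizontal axis, 1 point per gene tested; 1 gene that was not called lies outside the axes. Purple points (241, negative interaction) lie below the line of equal gaps and mostly right of 0, orange points (113, positive) lie above it and mostly left of 0.

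The directions of the single arms were read from the group means of log2 CPM, rested minus fresh, without a test of their own. Of the 241 genes with a negative interaction, 122 were higher after resting in CD5hi and in CD5lo cells, with the larger rise in CD5lo cells, 71 were lower in both, with the larger drop in CD5hi cells, and 48 were lower in CD5hi and higher in CD5lo cells. Of the 113 with a positive interaction, 41 were higher in both, 45 lower in both, and 27 higher in CD5hi and lower in CD5lo cells. Over all 12797 genes tested, 5474 were higher in both, 5884 lower in both, 656 lower in CD5hi and higher in CD5lo cells, and 783 the opposite. A smaller gap on the log scale is a smaller ratio and need not be a smaller difference in CPM. In 35 of the 190 genes with a smaller log2 gap after resting, the difference in CPM was larger after resting, a count chosen after the data were seen. It was 575 of 4720 over all genes with a smaller log2 gap.

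Inhibitors of TCR signalling were called mainly with negative interactions, as were 241 of the 354 calls over all genes tested. Of 34 tested members, 7 had a negative interaction (Cd5, Ctla4, Nt5e, Cblb, Ubash3b, Ptpn6 and Sh2d2a) and 1 a positive interaction (Socs3). The called share was 23.5%, against 2.77% over all genes tested, and the list's median interaction was -0.10. The same values over all genes stand against each list below. Like the other lists, this list was chosen with earlier results of these data known. For Cd5, the sorted marker, the levels given above amount to 4.88-fold more in CD5hi than in CD5lo cells after resting and 6.66-fold more in fresh cells, with an interaction of -0.45 ± 0.06 (log2 ± SE; edgeR adjusted p = 0.000478). Nt5e, the ectoenzyme CD73 that makes adenosine from AMP, stood at 130, 140, 142 and 158 CPM in rested CD5hi cells against 41.2, 46.5, 37.9 and 46.2 CPM in rested CD5lo cells. Fresh CD5hi cells had 37.5, 45.8, 43.9 and 45.2 CPM of Nt5e, against 5.04, 9.47, 8.00 and 6.25 CPM in fresh CD5lo cells. Rested CD5lo cells thus lay where fresh CD5hi cells lay, and the ratio of CD5hi to CD5lo cells was 3.32 rested against 6.06 fresh (interaction -0.87 ± 0.11; edgeR adjusted p = 0.00045). Ctla4, a coinhibitory receptor that competes with CD28 for its ligands, measured 36.4, 35.1, 35.2 and 33.0 CPM in rested CD5hi cells against 36.6, 36.7, 27.2 and 33.0 CPM in rested CD5lo cells. In fresh cells Ctla4 measured 3.40, 4.14, 3.05 and 3.0 CPM in the CD5hi libraries against 1.83, 2.07, 1.79 and 1.66 CPM in the CD5lo libraries. All fresh CD5hi libraries lay above all fresh CD5lo libraries, whereas the rested groups overlapped (interaction -0.81 ± 0.13; edgeR adjusted p = 0.00178). Ubash3b, the phosphatase Sts-1 that acts on TCR-proximal kinases, averaged 38.1 ± 1.98 CPM in rested CD5hi against 20.7 ± 1.31 CPM in rested CD5lo cells, and 61.2 ± 2.40 CPM in fresh CD5hi against 23.5 ± 0.837 CPM in fresh CD5lo cells (SD, n = 4 each). Its interaction was -0.50 ± 0.06 (edgeR adjusted p = 0.000441). Pdcd1, the coinhibitory receptor PD-1, kept a ratio of 6.23 in rested and 5.11 in fresh cells, with an interaction of 0.29 ± 0.35 that was not called (edgeR adjusted p = 0.807), at 0.133 to 3.60 CPM in rested and 1.15 to 8.89 CPM in fresh libraries. The calls of Cd5 and Ubash3b held in all 21 alternatives. That of Nt5e was lost without the replicate block (edgeR adjusted p = 0.0762), and that of Ctla4 was lost with the libraries that held Y-linked transcripts alone.

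TCR-induced genes were called in both directions: of 29 tested members, 4 had a positive interaction (Nr4a1, Tnfrsf4, Il2ra and Gadd45b) and 7 a negative one (Egr1, Nab2, Tnfrsf9, Spred2, Tagap, Relb and Ier2), which is 37.9%, with a list median of -0.13. Nr4a1, the orphan nuclear receptor Nur77 that follows TCR signal strength, measured 9.74, 6.28, 9.0 and 6.38 CPM in rested CD5hi cells against 2.78, 2.51, 3.03 and 2.31 CPM in rested CD5lo cells. Fresh CD5hi libraries held 61.9, 68.7, 78.7 and 64.7 CPM of Nr4a1 against 29.6, 32.4, 35.1 and 28.5 CPM in fresh CD5lo cells. Levels were far lower in all rested libraries, and the ratio of CD5hi to CD5lo cells was 2.93 rested against 2.18 fresh (interaction 0.42 ± 0.09; edgeR adjusted p = 0.0226). Egr1, a zinc finger transcription factor induced by ERK signalling, measured 9.69, 10.6, 15.8 and 12.5 CPM in rested CD5hi cells against 7.14, 6.92, 15.0 and 13.2 CPM in rested CD5lo cells. Before resting it measured 105, 106, 114 and 102 CPM in CD5hi libraries against 67.2, 60.2, 59.9 and 63.2 CPM in CD5lo libraries. The rested groups overlapped where the fresh groups were apart (interaction -0.54 ± 0.12; edgeR adjusted p = 0.0175). Nab2, a corepressor that binds Egr proteins, had a rested gap of 0.12 against a fresh gap of 0.66 (interaction -0.54, edgeR adjusted p = 0.000657). Gadd45b, a stress-inducible activator of p38 signalling, measured 5.83, 4.52, 10.0 and 5.73 CPM in rested CD5hi cells against 2.19, 2.89, 4.14 and 3.03 CPM in rested CD5lo cells. Its fresh levels were 5.46, 5.09, 4.97 and 4.99 CPM in CD5hi cells against 4.31, 4.15, 5.13 and 4.53 CPM in CD5lo cells. Rested CD5hi cells lay above rested CD5lo cells in all 4 pairs, while the fresh groups overlapped (interaction 0.89 ± 0.17; edgeR adjusted p = 0.00823).

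Nr4a3, Egr2 and Egr3 were not called by edgeR. Nr4a3 had an interaction of 0.20 ± 0.16 (edgeR adjusted p = 0.658), with 2.94 ± 0.344 CPM in rested CD5hi against 1.43 ± 0.348 CPM in rested CD5lo cells and 10.7 ± 1.15 CPM in fresh CD5hi against 6.03 ± 0.582 CPM in fresh CD5lo cells (SD, n = 4 each). Egr2 averaged 1.2 ± 0.647 CPM in rested CD5hi against 0.759 ± 0.389 CPM in rested CD5lo cells, and 19.6 ± 1.89 CPM in fresh CD5hi against 12.3 ± 1.19 CPM in fresh CD5lo cells (interaction -0.06 ± 0.29; edgeR adjusted p = 0.962). Egr3 averaged 0.295 ± 0.190 CPM in rested CD5hi against 0.366 ± 0.145 CPM in rested CD5lo cells, and 20.8 ± 1.22 CPM in fresh CD5hi against 13.6 ± 1.39 CPM in fresh CD5lo cells (interaction -0.98 ± 0.33; edgeR adjusted p = 0.162). The 4 rested gaps of Egr3 lay below its 4 fresh gaps, and DESeq2 called it (adjusted p = 0.0292), the only 1 of 21 alternatives that did. The SE of 0.29 for Egr2 and 0.33 for Egr3, against 0.12 for Egr1, leaves a change of the size found for Egr1 hard to detect at these rested levels. For Nr4a1 the call was lost when any of fresh pairs 1 to 4 or rested pair 1 was left out (edgeR adjusted p from 0.0527 to 0.113), and for Egr1 when fresh pair 2 or 3 was left out (0.0642 and 0.0791). None of Nr4a1, Egr1 and Gadd45b was called without the replicate block (edgeR adjusted p of 0.753, 0.853 and 0.386 in that order).

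Among AP-1 and immediate early genes, 3 of 22 tested members had a positive interaction (Jun, Fosb and Klf6) and 4 a negative one (Batf, Egr1, Ier2 and Zfp36), which is 31.8%, with a list median of 0.09. Jun, a core subunit of the AP-1 factor, was the gene with a lower level in CD5hi cells whose gap shrank most after Gprin3 among the named genes. Jun measured 11, 9.99, 15.2 and 12.4 CPM in rested CD5hi cells against 14.5, 15.9, 21.7 and 21.8 CPM in rested CD5lo cells. In fresh cells it measured 7.75, 3.78, 10.4 and 10.4 CPM in CD5hi libraries against 29.1, 18.4, 31.1 and 39.6 CPM in CD5lo libraries. CD5hi cells were lower in every pair, with gaps of -0.81 to -0.40 in rested and -2.28 to -1.57 in fresh pairs, and CD5lo cells exceeded CD5hi cells 1.52-fold after resting against 3.72-fold before (interaction 1.29 ± 0.13; edgeR adjusted p = 4.56e-05). Fosb, a dimer partner of Jun, measured 1.53, 0.885, 1.13 and 1.01 CPM in rested CD5hi cells against 0.302, 0.489, 0.339 and 0.347 CPM in rested CD5lo cells. Its fresh levels were 1.95, 0.978, 1.29 and 1.48 CPM in CD5hi cells against 1.22, 1.56, 1.22 and 1.30 CPM in CD5lo cells. The rested groups were apart and the fresh groups overlapped, at levels near 1 CPM (interaction 1.51 ± 0.38; edgeR adjusted p = 0.045). Fos, the other common partner, measured 24.1 to 32.1 CPM in rested CD5hi against 18.5 to 24.8 CPM in rested CD5lo cells, and 6.78 to 10.1 CPM in fresh CD5hi against 6.96 to 10.2 CPM in fresh CD5lo cells (interaction 0.26 ± 0.12; edgeR adjusted p = 0.331). Jun was called without any 1 pair (edgeR adjusted p of 0.000617 or less) but not without the replicate block (0.278). Fosb was lost without fresh pair 2, 3 or 4 or rested pair 1 or 3 (edgeR adjusted p from 0.0704 to 0.160) and without the block (0.0858).

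The start of Jun is shown because it is the leading AP-1 gene and AP-1 acts on its own promoter through a variant of the AP-1 element. The window is the 250 bases before the RefSeq gene start, chr4:95052223-95052472, minus strand, GRCm38.p6, 5′ to 3′, and the capitals mark its match to TGACNTCA, a form of the AP-1 and CRE element.
Jun: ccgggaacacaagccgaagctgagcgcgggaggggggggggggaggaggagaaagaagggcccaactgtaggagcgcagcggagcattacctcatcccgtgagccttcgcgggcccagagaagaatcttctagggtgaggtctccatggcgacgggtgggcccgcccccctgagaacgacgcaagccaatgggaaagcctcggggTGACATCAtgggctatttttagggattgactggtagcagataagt
Searched on both strands, TGACNTCA was found in 7.49% of 32851 such windows, and the classic AP-1 element TGANTCA, which was not found in the window of Jun, in 6.75%. A match describes letters in the window and is not a measured site.

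**Figure D2:**
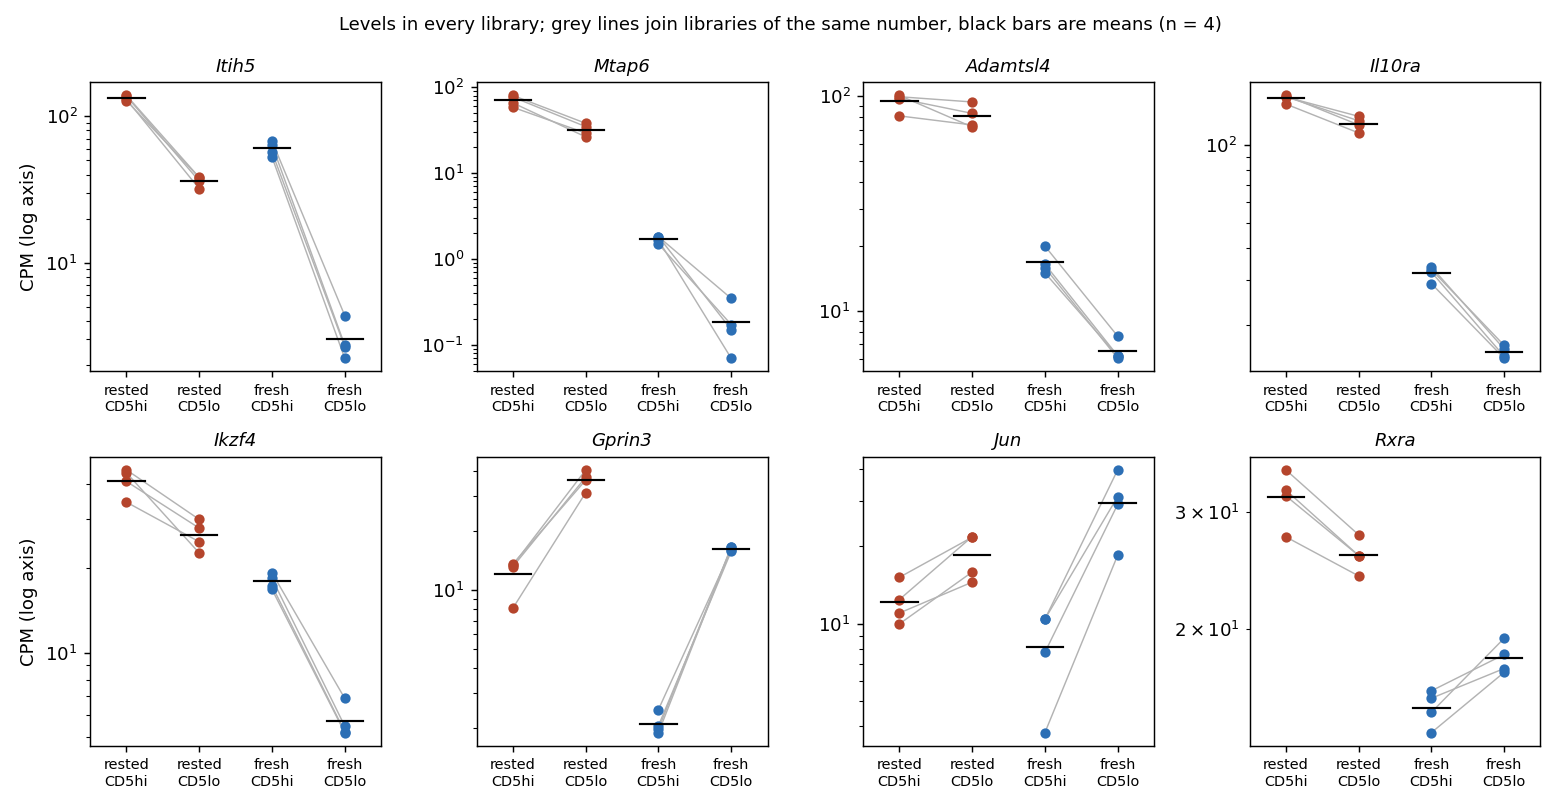
Level in CPM (log axis) of 8 genes in every library, in rested CD5hi, rested CD5lo, fresh CD5hi and fresh CD5lo cells; grey lines join libraries of the same number and black bars are means (n = 4). The lines are flatter in rested than in fresh cells for Itih5, Mtap6, Adamtsl4, Il10ra, Ikzf4, Gprin3 and Jun, and slope the other way for Rxra.

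In the Ikaros family of zinc finger transcription factors, 3 of 5 members were called (60%, against 2.77% over all genes tested). Ikzf2 (Helios), Ikzf3 (Aiolos) and Ikzf4 (Eos) all had a negative interaction, as did 241 of the 354 called genes. Helios and Eos are best known from Treg. Ikzf4 measured 44.9, 40.8, 34.4 and 43.8 CPM in rested CD5hi cells against 29.9, 27.8, 24.9 and 22.7 CPM in rested CD5lo cells. Before resting it measured 19.3, 17.3, 16.8 and 18.4 CPM in CD5hi libraries against 6.87, 5.22, 5.19 and 5.47 CPM in CD5lo libraries. Rested CD5lo cells had more Ikzf4 than fresh CD5hi cells in all libraries, and the ratio of CD5hi to CD5lo cells was 1.56 rested against 3.16 fresh (interaction -1.02 ± 0.11; edgeR adjusted p = 6.31e-05). Ikzf3 measured 130, 132, 148 and 154 CPM in rested CD5hi cells against 133, 123, 152 and 145 CPM in rested CD5lo cells. Fresh CD5hi cells had 171, 173, 182 and 181 CPM of Ikzf3 against 114, 121, 123 and 124 CPM in fresh CD5lo cells. The fresh groups were apart and the rested groups overlapped (interaction -0.52 ± 0.05; edgeR adjusted p = 3.46e-05). Ikzf2 measured 4.12, 5.27, 5.17 and 5.73 CPM in rested CD5hi cells against 2.25, 2.05, 1.33 and 2.48 CPM in rested CD5lo cells. In fresh cells it measured 9.03, 8.85, 9.96 and 10.1 CPM in the CD5hi libraries against 1.73, 2.23, 1.74 and 1.21 CPM in the CD5lo libraries. It stood higher in CD5hi cells in all 8 pairs, with ratios of 2.50 rested against 5.51 fresh (interaction -1.14 ± 0.24; edgeR adjusted p = 0.0144). The calls of Ikzf3 and Ikzf4 held in all 21 alternatives. That of Ikzf2 was lost without fresh pair 3, fresh pair 4 or rested pair 1 (edgeR adjusted p of 0.056, 0.05 and 0.0592). It was also lost without the replicate block (edgeR adjusted p = 0.0762), and with rested pairs 3 and 4 only.

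Genes of the Treg signature were called in 11 of 28 cases (39.3%), 9 with a negative and 2 with a positive interaction, at a list median of -0.20. The list shares Nt5e, Ctla4, Ikzf2, Ikzf4, Tnfrsf4, Tnfrsf9 and Il2ra with lists above. Il2rb, the beta chain of the receptors for IL-2 and IL-15, measured 59.8, 61.8, 56.4 and 61.5 CPM in rested CD5hi cells against 20.6, 23.8, 19.3 and 25.4 CPM in rested CD5lo cells. Fresh CD5hi libraries held 32.9, 34.6, 34.5 and 31.2 CPM of Il2rb against 7.78, 8.75, 6.09 and 6.47 CPM in fresh CD5lo cells. CD5hi cells were higher throughout, 2.70-fold after resting against 4.60-fold before (interaction -0.77 ± 0.10; edgeR adjusted p = 0.000478). Il2ra, the alpha chain of the IL-2 receptor, measured 96.6, 80.0, 79.2 and 91.2 CPM in rested CD5hi cells against 109, 100, 105 and 111 CPM in rested CD5lo cells. Its fresh levels were 1.87, 1.58, 1.2 and 1.82 CPM in CD5hi cells against 2.98, 3.45, 2.37 and 2.72 CPM in CD5lo cells. It was lower in CD5hi cells in all 8 pairs, by a smaller ratio after resting (interaction 0.53 ± 0.11; edgeR adjusted p = 0.0173) but by a larger difference in CPM. Nrp1, a coreceptor for semaphorins and VEGF, averaged 7.4 ± 1.80 CPM in rested CD5hi against 6.43 ± 0.879 CPM in rested CD5lo cells, and 7.34 ± 0.274 CPM in fresh CD5hi against 3.38 ± 0.466 CPM in fresh CD5lo cells (SD, n = 4 each). The rested minus fresh difference of the mean log2 CPM of Nrp1 was -0.02 in CD5hi and 0.92 in CD5lo cells (interaction -0.94 ± 0.14; edgeR adjusted p = 0.00159). Tnfrsf9, the costimulatory receptor 4-1BB, averaged 2.61 ± 0.496 CPM in rested CD5hi against 0.652 ± 0.102 CPM in rested CD5lo cells, and 11 ± 1.06 CPM in fresh CD5hi against 1.55 ± 0.194 CPM in fresh CD5lo cells (SD, n = 4 each; interaction -0.83 ± 0.21; edgeR adjusted p = 0.045). Foxp3, the defining factor of Treg, was at 24.2 to 30.2 CPM in rested CD5hi against 22.1 to 23.2 CPM in rested CD5lo cells, and at 22.1 to 25 CPM in fresh CD5hi against 20.6 to 23.0 CPM in fresh CD5lo cells (interaction 0.18 ± 0.08; edgeR adjusted p = 0.319). Il2rb was called in all 21 alternatives. Tnfrsf9 was lost when any of fresh pairs 1 to 4 or rested pair 2 or 3 was left out (edgeR adjusted p from 0.0709 to 0.151), and Il2ra when fresh pair 2 or 3 was left out (0.108 and 0.0832). Il2ra, Nrp1 and Tnfrsf9 were not called without the block (edgeR adjusted p of 0.314, 0.0999 and 0.238 in that order).

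**Figure D3:**
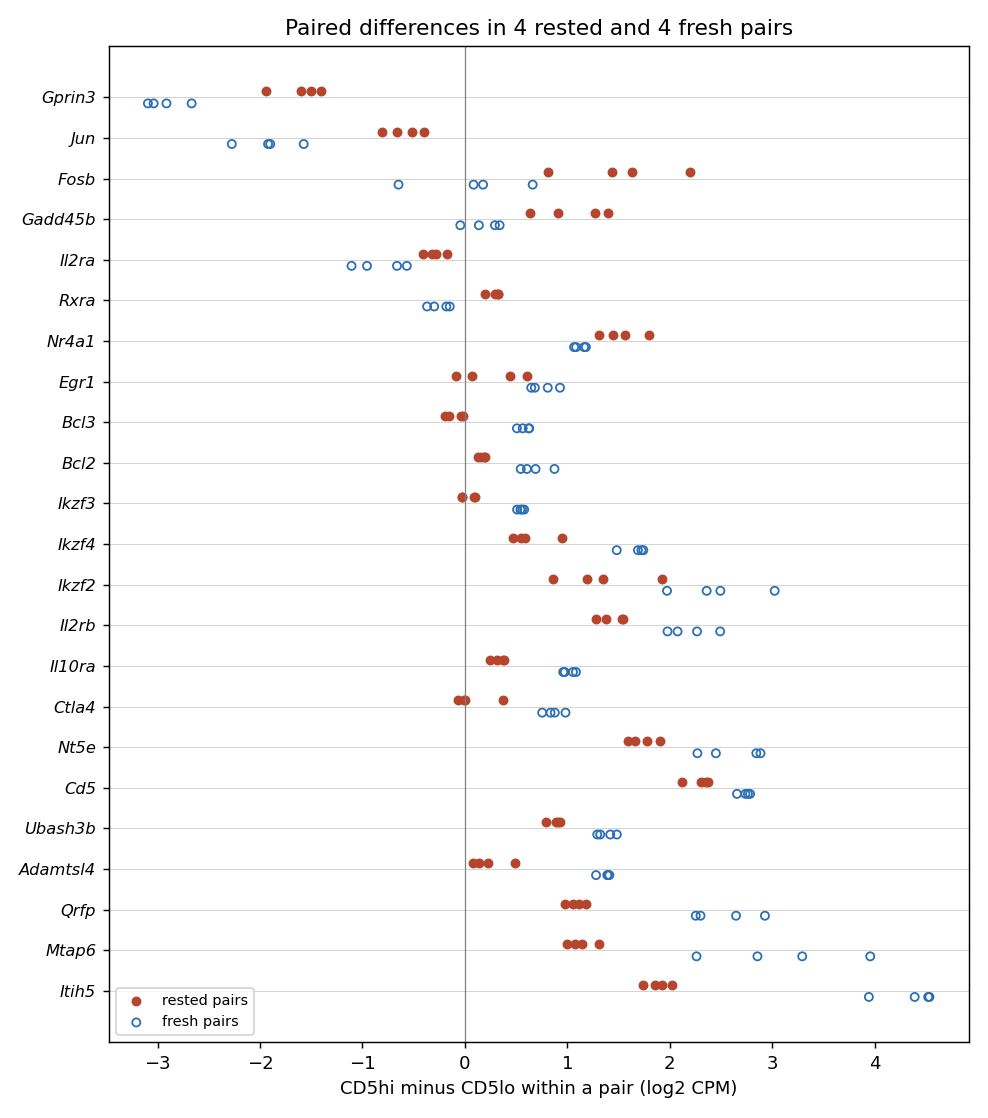
CD5hi minus CD5lo within each pair (log2 CPM) for 23 of the named genes; filled circles are the 4 rested pairs and open circles the 4 fresh pairs. The rested gaps lie nearer to 0 than the fresh gaps for most genes shown, and farther above it for Fosb, Gadd45b and Nr4a1.

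Among cytokine receptor chains and JAK-STAT genes 9 of 36 tested members were called (25%), 7 with a negative interaction (Il2rb, Il6st, Il7r, Il10ra, Ifngr1, Bcl2 and Pim2) and 2 with a positive one (Il2ra and Socs3), at a list median of -0.08. Il10ra, the ligand-binding chain of the IL-10 receptor, measured 154, 154, 144 and 156 CPM in rested CD5hi cells against 129, 124, 112 and 120 CPM in rested CD5lo cells. Before resting it measured 29.0, 32.9, 33.7 and 32.2 CPM in CD5hi libraries against 14.9, 16.7, 16.2 and 15.2 CPM in CD5lo libraries. All rested libraries lay above all fresh libraries, and the ratio of CD5hi to CD5lo cells was 1.25 rested against 2.03 fresh (interaction -0.69 ± 0.05; edgeR adjusted p = 7.02e-06), a call that held in all 21 alternatives. Bcl2, which protects mitochondria and is induced by IL-7, measured 1441, 1403, 1350 and 1434 CPM in rested CD5hi cells against 1318, 1259, 1190 and 1255 CPM in rested CD5lo cells. Fresh CD5hi cells had 236, 267, 300.2 and 267 CPM of Bcl2 against 129, 176, 206 and 166 CPM in fresh CD5lo cells. CD5hi cells were higher in all 8 pairs, 1.12-fold after resting against 1.60-fold before (interaction -0.51 ± 0.06; edgeR adjusted p = 0.000387). Il7r, the alpha chain of the IL-7 receptor, averaged 737 ± 167 CPM in rested CD5hi against 725 ± 148 CPM in rested CD5lo cells, and 635 ± 64.5 CPM in fresh CD5hi against 513 ± 57.1 CPM in fresh CD5lo cells (SD, n = 4 each). Rested levels of Il7r varied widely between pairs, whereas the gaps within pairs ran from -0.05 to 0.09 rested against 0.28 to 0.35 fresh (interaction -0.29 ± 0.05; edgeR adjusted p = 0.00433). Bbc3, the p53 target PUMA that promotes apoptosis, averaged 47.8 ± 12.0 CPM in rested CD5hi against 30.4 ± 7.52 CPM in rested CD5lo cells, and 30.8 ± 6.22 CPM in fresh CD5hi against 12.2 ± 2.54 CPM in fresh CD5lo cells (interaction -0.69 ± 0.11; edgeR adjusted p = 0.00259). With Bcl2, Bcl2l11 and Bcl2a1b it made 4 of 27 tested genes of the p53 and apoptosis list, all negative. That is 14.8%, against 2.77% over all genes tested, where 241 of the 354 calls were negative. Bcl2a1b has near-identical copies that share reads, so its value is uncertain, and its call was lost without any 1 of 7 pairs (edgeR adjusted p from 0.0511 to 0.142). Without the replicate block Bcl2, Il7r and Bbc3 were not called (edgeR adjusted p of 0.241, 1.0 and 0.687 in that order).

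Among called genes with at least 10 CPM in the highest group, predicted genes and receptor segments left out, Itih5 and Mtap6 had the largest negative interactions. Itih5, a heavy chain that binds hyaluronan in the extracellular matrix, measured 138, 128, 130 and 137 CPM in rested CD5hi cells against 38.2, 38.1, 32.0 and 36.1 CPM in rested CD5lo cells. In fresh cells it measured 52.6, 67.8, 63.8 and 57.0 CPM in CD5hi libraries against 2.23, 4.37, 2.74 and 2.68 CPM in CD5lo libraries. The ratio of CD5hi to CD5lo cells was 3.69 rested against 20.2 fresh (interaction -2.45 ± 0.11; edgeR adjusted p = 7.2e-09), although the difference in CPM was larger after resting, at 97.1 CPM rested against 57.3 CPM fresh. Mtap6, a protein that stabilises microtubules, measured 76.6, 80.1, 58.3 and 65.5 CPM in rested CD5hi cells against 34.7, 38, 29.2 and 26.4 CPM in rested CD5lo cells. Its fresh levels were 1.66, 1.82, 1.81 and 1.49 CPM in CD5hi cells against 0.0698, 0.151, 0.347 and 0.172 CPM in CD5lo cells. The groups were apart in either state, 2.19-fold rested against 9.23-fold fresh (interaction -2.07 ± 0.25; edgeR adjusted p = 0.000324), with fresh CD5lo levels well under 1 CPM. Adamtsl4, a secreted protein related to the ADAMTS proteases, measured 99.5, 97.6, 81.1 and 101 CPM in rested CD5hi cells against 94.1, 83.3, 73.6 and 72.0 CPM in rested CD5lo cells. In fresh CD5hi cells Adamtsl4 stood at 16.5, 15.1, 20.1 and 15.9 CPM against 6.19, 6.17, 7.63 and 6.03 CPM in fresh CD5lo cells. All rested libraries were above all fresh libraries, with CD5hi to CD5lo ratios of 1.18 rested against 2.59 fresh (interaction -1.14 ± 0.09; edgeR adjusted p = 7.02e-06). Smaller ratios after resting were also seen for Qrfp, the precursor of a neuropeptide (ratio 2.12 rested against 5.95 fresh; interaction -1.49 ± 0.14), for Fibcd1, a membrane receptor for acetylated sugars (2.81 against 7.07; -1.33 ± 0.18), and for Ndrg1, a stress-induced protein linked to T cell anergy (1.79 against 3.16; -0.82 ± 0.08). The calls of all 6 of these genes held in all 21 alternatives.

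Sypl and Abi2 had a called gap in fresh but not in rested cells, with lower CD5hi levels after resting. Sypl, a vesicle membrane protein of the synaptophysin family, measured 6.19, 5.92, 8.41 and 7.92 CPM in rested CD5hi cells against 6.64, 6.74, 6.39 and 7.21 CPM in rested CD5lo cells. Fresh CD5hi libraries held 31.1, 35.1, 38.5 and 31.5 CPM of Sypl against 16.2, 17.3, 19.4 and 17.5 CPM in fresh CD5lo cells. The rested groups overlapped while the fresh groups were 1.93-fold apart (interaction -0.88 ± 0.11; edgeR adjusted p = 0.000365). Abi2, a part of the complex that drives actin branching, averaged 8.74 ± 2.13 CPM in rested CD5hi against 9.09 ± 1.52 CPM in rested CD5lo cells, and 11.8 ± 0.506 CPM in fresh CD5hi against 6.71 ± 0.264 CPM in fresh CD5lo cells (SD, n = 4 each; interaction -0.89 ± 0.11; edgeR adjusted p = 0.000289). Gucy1a3, a subunit of the nitric oxide receptor guanylate cyclase, averaged 45.7 ± 14.7 CPM in rested CD5hi against 16.9 ± 8.00 CPM in rested CD5lo cells, and 4.46 ± 0.387 CPM in fresh CD5hi against 0.752 ± 0.135 CPM in fresh CD5lo cells (interaction -1.07 ± 0.18; edgeR adjusted p = 0.00324). Its rested levels split between pairs, with 57.3 and 59.3 CPM in the CD5hi libraries of pairs 1 and 2 and 30.2 and 36.2 CPM in those of pairs 3 and 4. The call of Sypl held in all 21 alternatives, and without the replicate block neither Abi2 nor Gucy1a3 was called (edgeR adjusted p of 0.0911 and 0.691).

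Under the same limit of 10 CPM, Gprin3 and Jun, which CD5lo cells expressed more, had the largest positive interactions. Gprin3, a member of a family of G protein-regulated inducers of neurite outgrowth, measured 13.4, 13.1, 8.10 and 13.6 CPM in rested CD5hi cells against 40.6, 37.3, 31.1 and 36.1 CPM in rested CD5lo cells. Before resting it measured 1.98, 1.89, 2.48 and 2.05 CPM in CD5hi libraries against 16.5, 16.4, 15.9 and 15.7 CPM in CD5lo libraries. CD5lo cells exceeded CD5hi cells in all pairs, 3.05-fold after resting against 7.66-fold before (interaction 1.33 ± 0.13; edgeR adjusted p = 4.45e-05), a call that held in all 21 alternatives. Gbp11, an interferon-inducible guanylate-binding GTPase, measured 98.2, 97.3, 98.5 and 121 CPM in rested CD5hi cells against 123, 128, 146 and 156 CPM in rested CD5lo cells. Its fresh levels were 7.11, 7.74, 9.54 and 7.05 CPM in CD5hi cells against 16.4, 17.6, 18.5 and 15.7 CPM in CD5lo cells. The excess in CD5lo cells was 1.33-fold rested against 2.17-fold fresh (interaction 0.71 ± 0.07; edgeR adjusted p = 5.89e-05). Adamts14, a protease of procollagen, was among the genes whose levels were lower after resting, at 1.16 ± 0.619 CPM in rested CD5hi against 3.91 ± 2.61 CPM in rested CD5lo cells and 6.93 ± 0.873 CPM in fresh CD5hi against 41.5 ± 4.19 CPM in fresh CD5lo cells (SD, n = 4 each; interaction 0.85 ± 0.16; edgeR adjusted p = 0.0076). Cacnb3 (a calcium channel subunit), Nav2 (a cytoskeletal protein known from neurons) and Lair1 (an inhibitory receptor for collagen) had interactions of 0.68, 0.67 and 0.63. Calls were lost without rested pair 1 for Adamts14 (edgeR adjusted p = 0.0506), without fresh pair 1, 3 or 4 for Cacnb3 (0.0628, 0.0803 and 0.0563), and without fresh pair 1, 3 or 4 or rested pair 1 for Lair1 (0.0625 to 0.07). The fit without the block called none of Adamts14, Nav2, Cacnb3 and Lair1 (edgeR adjusted p of 1.0, 0.561, 0.364 and 0.0762 in that order).

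In a smaller set the sign differed between the states, or the gap grew. Myb, a transcription factor of progenitors and of stem-like T cells, measured 11.3, 10.7, 18.0 and 20.3 CPM in rested CD5hi cells against 3.08, 4.45, 5.35 and 3.72 CPM in rested CD5lo cells. Fresh CD5hi cells had 37.4, 35.1, 31.3 and 36.4 CPM of Myb against 17.5, 19.0, 15.6 and 18.5 CPM in fresh CD5lo cells. The ratio of CD5hi to CD5lo cells was wider after resting, 3.61 against 1.99 (interaction 0.86 ± 0.16; edgeR adjusted p = 0.0079). Dst, a linker of cytoskeletal filaments, averaged 75.9 ± 27.6 CPM in rested CD5hi against 68.3 ± 23.5 CPM in rested CD5lo cells, and 8.99 ± 0.469 CPM in fresh CD5hi against 15.3 ± 1.64 CPM in fresh CD5lo cells (interaction 0.90 ± 0.13; edgeR adjusted p = 0.000685). It was lower in CD5hi cells in all 4 fresh pairs and had gaps of -0.22 to 0.46 in the rested pairs. Ccdc164, which belongs to the dynein regulatory complex of cilia, likewise had gaps of -0.04 to 0.44 rested against -1.07 to -0.50 fresh (interaction 0.98 ± 0.15, edgeR adjusted p = 0.00205). The rested gaps of Dst and Ccdc164 were themselves not called (edgeR adjusted p of 0.27 and 0.34), so a reversed sign was not shown for them. Rxra, the retinoid X receptor that pairs with many nuclear receptors, measured 31.8, 34.8, 32.4 and 27.6 CPM in rested CD5hi cells against 25.8, 27.8, 25.8 and 24.1 CPM in rested CD5lo cells. Its fresh levels were 15.0, 15.7, 16.1 and 14 CPM in CD5hi cells against 19.4, 17.4, 18.3 and 17.2 CPM in CD5lo cells. CD5hi cells were higher in all 4 rested pairs and lower in all 4 fresh pairs (interaction 0.54 ± 0.07; edgeR adjusted p = 0.000622), and this call held in all 21 alternatives. Rxra and Akr1c13, an aldo-keto reductase (interaction 0.74 ± 0.14; edgeR adjusted p = 0.00639), were among 25 of the 354 genes whose rested and fresh gaps were both called and had opposite signs. Akr1c13 has closely related neighbours that may share reads. Myb, Dst, Ccdc164 and Akr1c13 were not called without the replicate block (edgeR adjusted p of 0.278, 0.582, 0.773 and 0.0999 in that order).

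The thymocyte genes were called in 3 of 13 cases (23.1%), with a list median of 0.05. Dntt, the terminal transferase of thymocytes that lingers in recent emigrants, measured 2.54, 3.13, 3.56 and 3.59 CPM in rested CD5hi cells against 26.4, 31.4, 27.4 and 33.2 CPM in rested CD5lo cells. In fresh cells it measured 2.06, 1.98, 1.47 and 2.30 CPM in CD5hi libraries against 27.9, 25.3, 32.1 and 27.6 CPM in CD5lo libraries. CD5lo cells were far higher in either state, 9.24-fold rested against 14.5-fold fresh (interaction 0.65 ± 0.16; edgeR adjusted p = 0.0461). Cd8b1, the CD8 beta chain, averaged 6.43 ± 0.996 CPM in rested CD5hi against 19.4 ± 1.41 CPM in rested CD5lo cells, and 7.59 ± 0.576 CPM in fresh CD5hi against 30.6 ± 2.54 CPM in fresh CD5lo cells (interaction 0.40 ± 0.10; edgeR adjusted p = 0.0436). Cd8a, its partner chain and a defining marker of CD8 T cells, was at 0.417 and 0.70 CPM in rested CD5hi and CD5lo cells and at 0.516 and 0.934 CPM in fresh CD5hi and CD5lo cells. Sox4, a transcription factor of immature lymphocytes, had a rested gap of 0.61 against a fresh gap of 1.10 (interaction -0.49 ± 0.09; edgeR adjusted p = 0.00677). The calls of Dntt and Cd8b1 are weak: that of Dntt was lost without any 1 of 6 pairs (edgeR adjusted p from 0.0732 to 0.115) and that of Cd8b1 without any 1 of 7 pairs (0.0501 to 0.142). Neither these genes nor Sox4 were called without the block (edgeR adjusted p of 0.238 for Dntt, 0.474 for Cd8b1 and 0.806 for Sox4).

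Of the NF-kappaB pathway genes, 3 of 24 were called (12.5%, against 2.77% over all genes tested). Bcl3, Relb and Nfkb2 were all negative, as were 241 of the 354 calls over all genes. The list's median was -0.06. Bcl3, a nuclear protein that binds p50 and p52 dimers, measured 15.7, 16.2, 21.7 and 19.1 CPM in rested CD5hi cells against 17.4, 16.4, 22.3 and 21.8 CPM in rested CD5lo cells. Fresh CD5hi libraries held 63.7, 62.3, 56.9 and 42.4 CPM of Bcl3 against 41.2, 43.8, 38.5 and 27.6 CPM in fresh CD5lo cells. Within pairs Bcl3 was higher in CD5hi cells in all 4 fresh pairs and lower in all 4 rested pairs, where the rested gap itself was not called (interaction -0.68 ± 0.06; edgeR adjusted p = 4.45e-05). Relb averaged 34.2 ± 11.5 CPM in rested CD5hi against 41.8 ± 17.4 CPM in rested CD5lo cells, and 40.5 ± 1.92 CPM in fresh CD5hi against 37.2 ± 2.43 CPM in fresh CD5lo cells (interaction -0.39 ± 0.07; edgeR adjusted p = 0.00677). Nfkb2, the precursor of p52, averaged 66.9 ± 19.5 CPM in rested CD5hi against 83.4 ± 29.8 CPM in rested CD5lo cells, and 59.9 ± 4.29 CPM in fresh CD5hi against 61.8 ± 2.32 CPM in fresh CD5lo cells (interaction -0.25 ± 0.06; edgeR adjusted p = 0.0406). Rested levels of Relb and Nfkb2 were higher in pairs 3 and 4 than in pairs 1 and 2. Nfkb2 was lost without any 1 of fresh pairs 1 to 4 or without rested pair 2 or 3 (edgeR adjusted p from 0.0547 to 0.169), and none of these 3 genes was called without the replicate block (0.400 for Bcl3 and 1.0 for Relb and Nfkb2).

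The starts of Bcl3 and Nfkb2 are shown as those of the called members of this list that hold letters of an NF-kappaB element. The windows are the 250 bases before the RefSeq gene start in GRCm38.p6, 5′ to 3′: chr7:19822756-19823005, minus strand, for Bcl3, and chr19:46304487-46304736, plus strand, for Nfkb2, which has 3 listed starts. For Nfkb2 the window with the most matches is shown, and the windows of its other starts held no match to this element. Capitals mark matches to GGGNNTTCC on either strand.
Bcl3: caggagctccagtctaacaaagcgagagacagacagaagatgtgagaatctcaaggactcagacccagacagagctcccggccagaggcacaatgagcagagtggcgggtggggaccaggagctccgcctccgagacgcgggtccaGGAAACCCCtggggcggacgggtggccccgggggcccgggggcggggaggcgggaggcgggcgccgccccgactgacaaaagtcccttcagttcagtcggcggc
Nfkb2: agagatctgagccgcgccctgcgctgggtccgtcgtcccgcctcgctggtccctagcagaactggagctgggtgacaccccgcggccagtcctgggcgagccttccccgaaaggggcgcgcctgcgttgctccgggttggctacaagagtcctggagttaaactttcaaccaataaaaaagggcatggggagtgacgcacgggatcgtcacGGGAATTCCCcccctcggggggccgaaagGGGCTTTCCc
The element was found in 4.98% of 32851 such windows. In Nfkb2 the first stretch of capitals holds overlapping matches on both strands. The letters say nothing on whether a factor was bound in these cells.

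**Figure D4:**
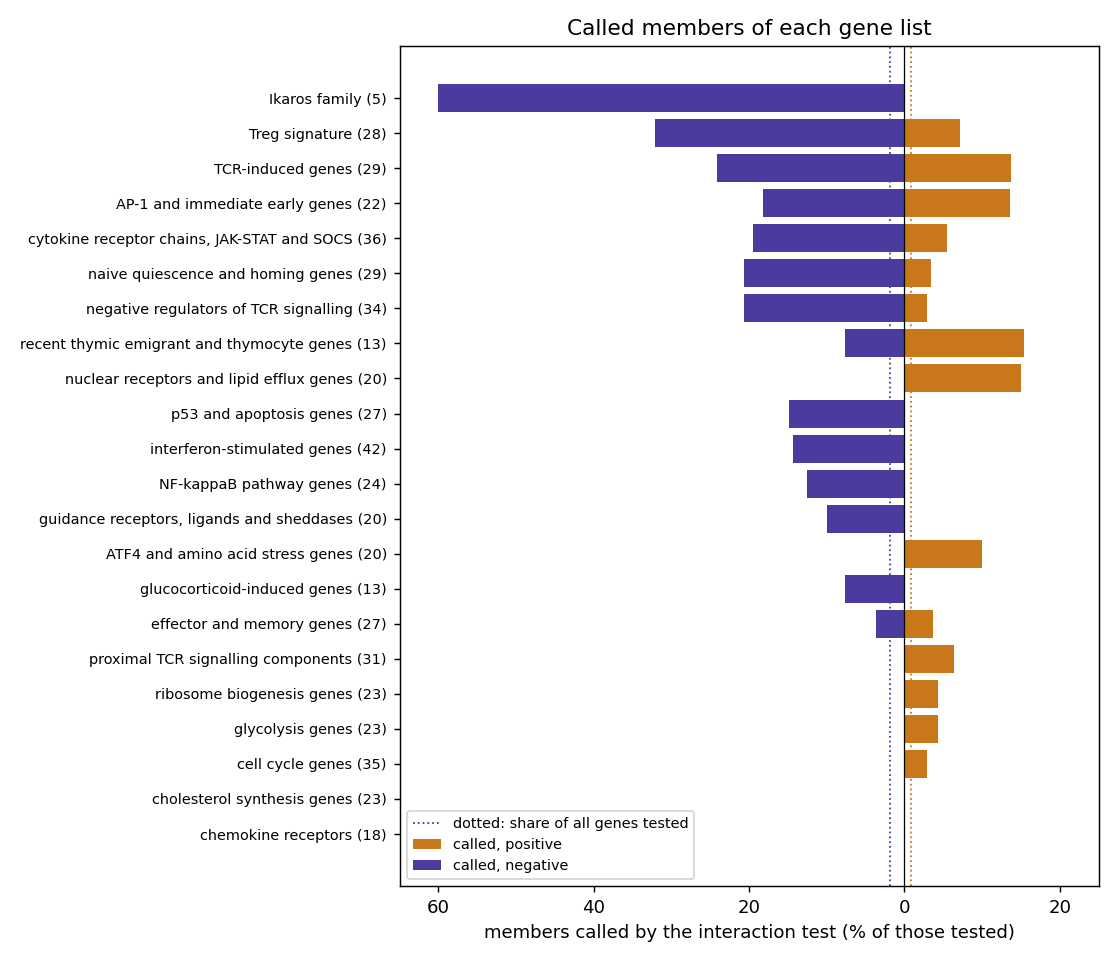
Members of each gene list called by the interaction test, as a percentage of the members tested (number in brackets); purple bars to the left are negative and orange bars to the right positive. Dotted lines mark the shares over all genes tested, 1.88% negative and 0.883% positive.

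Calls among interferon-stimulated genes and genes of naive quiescence were mostly negative, as were 241 of the 354 calls over all genes tested. Of 42 interferon-stimulated genes 6 were called (14.3%), all negative, with a list median of -0.11. Gbp11, an interferon-inducible gene that is not in this list, had a called positive interaction of 0.71. Iigp1, an immunity-related GTPase, measured 14.4, 13.8, 33.0 and 28.5 CPM in rested CD5hi cells against 38.9, 39.6, 78.6 and 86.1 CPM in rested CD5lo cells. Fresh CD5hi cells had 47.7, 58.1, 55.9 and 40.1 CPM of Iigp1 against 88.3, 108, 116 and 82.4 CPM in fresh CD5lo cells. CD5lo cells were higher in all pairs, and the excess was wider after resting, 2.73-fold against 1.95-fold (interaction -0.48 ± 0.07; edgeR adjusted p = 0.00159). Ifit3, an antiviral protein, averaged 3.59 ± 0.933 CPM in rested CD5hi against 5.22 ± 1.19 CPM in rested CD5lo cells, and 31.5 ± 4.76 CPM in fresh CD5hi against 27.9 ± 2.96 CPM in fresh CD5lo cells (interaction -0.72 ± 0.13; edgeR adjusted p = 0.00516). Usp18, which limits interferon receptor signalling, had a rested gap of -0.42 against a fresh gap of -0.04 (interaction -0.39 ± 0.08; edgeR adjusted p = 0.0146), a call lost without fresh pair 1 or 2 (0.0569 and 0.0613). Of 29 quiescence and homing genes 7 were called (24.1%), 6 negative and 1 positive, with a list median of -0.10. Klf2, which sustains quiescence and homing receptors, averaged 632 ± 38.8 CPM in rested CD5hi against 664 ± 30.5 CPM in rested CD5lo cells, and 326 ± 18.7 CPM in fresh CD5hi against 281 ± 25.5 CPM in fresh CD5lo cells (interaction -0.29 ± 0.05; edgeR adjusted p = 0.00629). Foxn3, a forkhead repressor, had a rested gap of 0.37 against a fresh gap of 0.79 (interaction -0.43 ± 0.06; edgeR adjusted p = 0.000542). Without the replicate block none of Iigp1, Ifit3, Klf2 and Foxn3 was called (edgeR adjusted p from 0.389 to 1.0).

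The effector and memory list held 2 called genes of 27 (7.41%; list median -0.18). Id2, an inhibitor of E proteins, measured 113, 104, 148 and 117 CPM in rested CD5hi cells against 38.7, 41.7, 54.2 and 59.1 CPM in rested CD5lo cells, and its CD5hi to CD5lo ratio was 2.50 rested against 3.97 fresh (interaction -0.67 ± 0.10; edgeR adjusted p = 0.0013). Il18r1, a chain of the IL-18 receptor, was lower in CD5hi cells in all 8 pairs, with gaps of -0.25 to -0.04 in rested and -0.80 to -0.53 in fresh pairs (interaction 0.49 ± 0.06; edgeR adjusted p = 0.000478). In the proximal TCR machinery 2 of 31 genes were called (6.45%; median -0.04): Grap2, the adaptor Gads, at an interaction of 0.30 ± 0.06, and the kinase Tec at 0.31 ± 0.07. CD5lo cells had more of both genes in either state. Tec was lost without any 1 of 7 pairs (edgeR adjusted p from 0.0588 to 0.148). Without the replicate block none of Id2, Il18r1, Grap2 and Tec was called (edgeR adjusted p of 0.270, 0.713, 0.133 and 0.720 in that order).

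Among 20 nuclear receptor and lipid efflux genes 3 were called (15%; median -0.01), all positive: Rxra, and Nr1d1 and Nr1d2, the Rev-erb repressors of the circadian clock. Nr1d2 averaged 69.5 ± 8.04 CPM in rested CD5hi against 81.9 ± 6.61 CPM in rested CD5lo cells, and 34.5 ± 0.784 CPM in fresh CD5hi against 49.4 ± 0.348 CPM in fresh CD5lo cells (interaction 0.28 ± 0.05; edgeR adjusted p = 0.00757). Nr1d1 gave 0.44 ± 0.11, a call lost without any 1 of 6 pairs (edgeR adjusted p from 0.0673 to 0.162). Of 20 genes of the ATF4 and amino acid response 2 were called (10%; median 0.17): Cars, a tRNA synthetase, with a rested gap of 0.02 against a fresh gap of -0.41 (interaction 0.42 ± 0.06), and Slc7a5, a carrier of large amino acids (0.36 ± 0.08), which was lost without any 1 of 5 pairs (edgeR adjusted p from 0.0989 to 0.120). Pdk1, a kinase that restrains pyruvate oxidation, was the called gene of 23 in the glycolysis list (4.35%; median -0.02), with an interaction of 0.21 ± 0.05 that was lost without any 1 of 5 pairs (edgeR adjusted p from 0.0556 to 0.0882). Rrp12, a factor of ribosome export, was that of 23 ribosome biogenesis genes (4.35%; median 0.09), with 0.33 ± 0.06. Of 20 guidance genes Nrp1 and the receptor Ephb6 (-0.32 ± 0.06, lost without fresh pair 3 at an edgeR adjusted p of 0.0504) were called (10%; median 0.00). Of 13 glucocorticoid-induced genes Il7r was called (7.69%; median -0.09). Of the genes in this paragraph, Rxra alone was called without the replicate block.

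No member passed the edgeR test in 2 lists. At an unadjusted p under 0.05 there were 1 of 23 cholesterol synthesis genes and 6 of 18 chemokine receptors and related homing receptors, DESeq2 called 0 and 1 of them, and limma-voom 0 of either list. Of 23 cholesterol synthesis genes the lowest p belonged to Lss, the lanosterol synthase, which averaged 25.6 ± 1.09 CPM in rested CD5hi against 24.6 ± 1.24 CPM in rested CD5lo cells, and 20.9 ± 0.922 CPM in fresh CD5hi against 22.5 ± 1.79 CPM in fresh CD5lo cells (interaction 0.16 ± 0.07; edgeR adjusted p = 0.354). Among the homing receptors it belonged to Gpr183, the oxysterol receptor EBI2, with a rested gap of 0.24 against a fresh gap of 0.51 (interaction -0.26 ± 0.07; edgeR adjusted p = 0.0608). Gpr183 was called in 6 of 21 alternatives, among them DESeq2, no filter on low counts and rested pairs 1 and 2 only (adjusted p from 0.000319 to 1.0 over all 21). The fit without rested pair 3 is counted under both of its names among these 6. The list medians were 0.02 and -0.15 in that order. Of 35 cell cycle genes 1 was called (2.86%; median -0.01): the cyclin Ccnb1, which stayed under 1 CPM in every group mean. Mki67, the proliferation marker Ki-67, averaged 7.89 ± 1.23 CPM in rested CD5hi against 2.90 ± 0.971 CPM in rested CD5lo cells, and 9.32 ± 1.54 CPM in fresh CD5hi against 5.31 ± 0.663 CPM in fresh CD5lo cells (SD, n = 4 each; interaction 0.66 ± 0.18; edgeR adjusted p = 0.0658). Its gaps were 1.04 to 1.87 in rested and 0.58 to 1.06 in fresh pairs, which overlap slightly, and it was called in 5 of 21 alternatives, among them DESeq2 and no filter on low counts (adjusted p from 0.0186 to 0.751 over all 21).

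**Figure D5:**
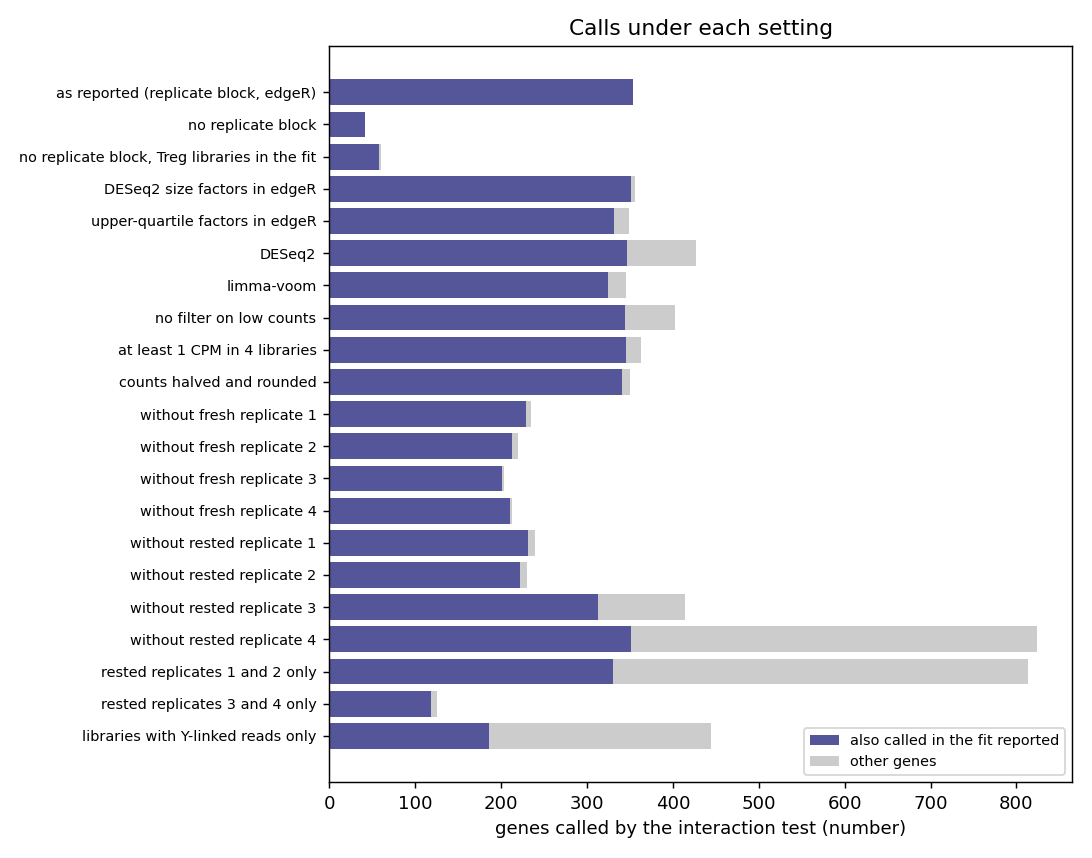
Number of genes called by the interaction test under each setting; the dark part of a bar counts genes that are also among the 354 of the fit reported. The bar runs from 42 genes without the replicate block to 824 without rested pair 4, and the dark part stays at 201 or more in every fit that leaves out 1 pair.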

How the data were processed

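Poly(A)-selected RNA was sequenced as paired reads of 50 bases on an Illumina HiSeq, per the labels' protocols, without a stated strand protocol. The authors deposited raw read counts per gene symbol for 22068 genes. Tools named in the submitters' processing notes are edgeR, Subread, featureCounts 1.4.5 and TopHat2 2.0.11, with mm9 as the build. How they were combined, the annotation and the strandedness of counting are not stated there. A gene and an antisense partner therefore cannot be separated. Even numbers made up 62.3 to 65.4% of the counts from 1 to 10, so mates may have been counted separately, and counting error may be larger than the counts imply. A second deposited table, of normalized values, was not used.

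The 16 naive libraries were tested in R 4.3.3 with edgeR 4.0.16, using its quasi-likelihood test and TMM scaling. The default expression filter on the 4 groups left 12797 genes (58% of the table) and removed 9271. The design held a replicate block, set separately within rested and within fresh libraries, and a CD5hi effect in each state, with 6 residual degrees of freedom. Benjamini-Hochberg adjusted p-values under 0.05 were called. The SE is the log2 fold change over the square root of its F. Gaps within pairs and the rested minus fresh differences of single arms are from log2 CPM with a prior count of 2. Other CPM values are counts over TMM-scaled totals. Values after ± without a label are SE for an interaction and SD (n = 4) for a level.

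The block rests on the data, since the labels do not say what a number marks: deviations from the group means correlated at 0.21 to 0.57 within same-numbered rested pairs and 0.19 to 0.37 within fresh pairs, against -0.51 to 0.34 and -0.20 to 0.07 between different numbers. The rested ranges overlap. Rested CD5hi 2 with CD5lo 1 gave 0.34, CD5hi 1 with CD5lo 2 gave 0.29 and CD5hi 3 with CD5lo 4 gave 0.24. Rested pair 4 itself gave 0.21, so its pairing is the least secure. Deviations from a group mean sum to 0, so positive values within pairs go with negative values between numbers. Numbers were not paired across states. The labels call the replicates biological without saying which animals they came from, so p-values measure the spread between these pairs. On simulated counts for the interaction (12607 genes), 70.1% of 1.5-fold, 83.6% of 2-fold and 97.0% of 4-fold changes were recovered, and 4.02% of calls were false. Each simulated gene had the same mean level in all groups before a change was added, and the same pair spread in either state. In the data levels differed between groups, and the median SD of the gaps was 0.14 in rested and 0.09 in fresh pairs. These rates therefore need not hold for the data.

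The members and the 22 gene lists were chosen with earlier results of these data known. The 72 named genes are 18 fixed genes, the 12 largest positive and 12 largest negative called interactions with at least 10 CPM in the highest group and without overlap of the rested and fresh gaps (predicted genes and receptor segments left out), and up to 3 called members of each list with at least 1 CPM or, where none was called, the member with the lowest p. A few further called list members are named in counts. Promoter windows came from RefSeq GRCm38.p6 and were matched by symbol for 52 of the 72. Alternatives were DESeq2 1.42.0, voom of limma 3.58.1, other scalings, filters and fits without the block or without libraries.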

Additional observations from a re-analysis of the deposited data

Results flagged for a closer look

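The effect of CD5 level differed between rested and fresh cells for 63 of the 72 named genes, each by edgeR's quasi-likelihood test of the interaction with Benjamini-Hochberg adjustment. These genes are the ones chosen to be named, so their number says nothing on how common such differences are. As log2 of the rested gap minus the fresh gap, the interaction was -2.45 for Itih5, -2.07 for Mtap6, -1.49 for Qrfp, -1.33 for Fibcd1, -1.14 for Ikzf2, -1.14 for Adamtsl4, -1.07 for Gucy1a3 and -1.02 for Ikzf4. It was -0.94 for Nrp1, -0.89 for Abi2, -0.88 for Sypl, -0.87 for Nt5e, -0.83 for Tnfrsf9, -0.82 for Ndrg1, -0.81 for Ctla4, -0.77 for Il2rb, -0.72 for Ifit3, -0.69 for Il10ra, -0.69 for Bbc3, -0.68 for Bcl3, -0.67 for Id2 and -0.63 for Bcl2a1b. Smaller negative values were -0.54 for Egr1, -0.52 for Ikzf3, -0.51 for Bcl2, -0.50 for Ubash3b, -0.49 for Sox4, -0.48 for Iigp1, -0.45 for Cd5, -0.43 for Foxn3, -0.39 for Relb, -0.39 for Usp18, -0.32 for Ephb6, -0.29 for Il7r, -0.29 for Klf2 and -0.25 for Nfkb2. Positive interactions were 1.51 for Fosb, 1.33 for Gprin3, 1.29 for Jun, 0.98 for Ccdc164, 0.90 for Dst, 0.89 for Gadd45b, 0.86 for Myb, 0.85 for Adamts14, 0.74 for Akr1c13, 0.71 for Gbp11, 0.68 for Cacnb3, 0.67 for Nav2, 0.65 for Dntt and 0.63 for Lair1. Smaller positive values were 0.54 for Rxra, 0.53 for Il2ra, 0.49 for Il18r1, 0.44 for Nr1d1, 0.42 for Nr4a1, 0.42 for Cars, 0.40 for Cd8b1, 0.36 for Slc7a5, 0.33 for Rrp12, 0.31 for Tec, 0.30 for Grap2, 0.28 for Nr1d2 and 0.21 for Pdk1. Of the 63 genes, 44 were called without any 1 pair and 17 without the replicate block.

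In 14 of 288 sets of 4 libraries of the named genes, 1 library lay far from the other 3 by Dixon's test, and chance alone gives about 1 in 20 groups. Rested CD5hi library 3 was such a library for 4 genes: Nr4a3 at 3.45 CPM against 2.75 to 2.79 CPM in the other 3, Akr1c13 at 13.7 against 9.77 to 9.82 CPM, Gprin3 at 8.10 against 13.1 to 13.6 CPM and Adamtsl4 at 81.1 against 97.6 to 101 CPM. This is also the rested CD5hi library with Y-linked transcripts, and the part of sex in these values was not tested. Rested CD5hi library 4 held 121 CPM of Gbp11 against 97.3 to 98.5 CPM, and rested CD5hi library 2 held 1.87 CPM of Tnfrsf9 against 2.82 to 2.91 CPM. Among fresh CD5hi libraries, number 1 held 70.3 CPM of Il18r1 against 63.6 to 64 CPM, number 4 held 7.02 CPM of Mki67 against 9.96 to 10.2 CPM, and number 3 held 279 CPM of Pdk1 against 336 to 345 CPM. Pdk1 was also low in fresh CD5lo library 3, at 534 against 642 to 661 CPM, and its gap in that pair was -0.94. Among the other fresh CD5lo libraries, number 3 held 7.63 CPM of Adamtsl4 against 6.03 to 6.19 CPM, number 1 held 6.87 CPM of Ikzf4 against 5.19 to 5.47 CPM, number 2 held 0.669 CPM of Qrfp against 0.994 to 1.02 CPM, and number 4 held 111 CPM of Il18r1 against 100.5 to 102 CPM.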

How the results depend on the processing

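The signs of all 354 called interactions were the same in every alternative that tested them, but the number of calls was not. Without the replicate block 42 genes were called (11 positive, 31 negative), with 989 rested gaps and 1420 fresh gaps called. Without the block and with the Treg libraries in the fit, 60 were called (15 positive, 45 negative), with 1092 rested and 1524 fresh gaps. Leaving out both libraries of 1 pair in turn gave 204 to 824 calls, 56 to 302 of them positive and 148 to 522 negative. With rested pairs 1 and 2 only, 813 were called (297 positive, 516 negative), and with rested pairs 3 and 4 only, 125 (35 positive, 90 negative) with 995 rested gaps. With libraries that held Y-linked transcripts only, 225 were positive and 219 negative, with 1459 rested gaps, and with the 3 rested pairs that lacked them 414 genes were called. The cause of these shifts was not tested, apart from the fewer libraries in the fit. Other scaling factors gave 349 and 356 calls. DESeq2 gave 427, limma-voom 346, no filter 402, a minimum of 1 CPM 363 and halved counts 350. Of the 354 genes 171 were called without any 1 pair, 104 in all 19 alternatives with the block and 32 in all 21. The fit without rested pair 3 is the same as that with the 3 rested pairs that lacked Y-linked transcripts. It is counted under both names among the 19 and the 21. Reversed signs occurred for genes that were not called: Egr2 gave 0.03 without fresh pair 3, 0.07 without rested pair 2, 0.27 without rested pair 4, 0.27 with rested pairs 1 and 2 only and 0.28 with Y-linked libraries only. Pdcd1 gave -0.13 without rested pair 2 and -0.10 with rested pairs 3 and 4 only, and Foxp3 gave -0.041 with Y-linked libraries only. Over all fits without 1 pair Egr2 ran from -0.32 to 0.27 and Pdcd1 from -0.13 to 0.60. Depth limits genes under 1 CPM, such as Egr3 in rested cells. The labels do not say what the replicate numbers mark, so calls that need the pairing rest on the correlation of same-numbered libraries.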

Other observations

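Some of the largest interactions lay outside the rule for named genes, because of their low level or their predicted status, and were picked after their values were seen. Gm4956, a predicted gene, averaged 0.118 CPM in rested CD5hi and 0.118 CPM in rested CD5lo cells, against 8.04 CPM in fresh CD5hi and 0.144 CPM in fresh CD5lo cells (interaction -5.76; edgeR adjusted p = 3.46e-05). Trpm1, a cation channel known from retina and melanocytes, averaged 0.859 CPM in rested CD5hi and 0.442 CPM in rested CD5lo cells, and 4.67 CPM in fresh CD5hi and 0.282 CPM in fresh CD5lo cells (interaction -3.10; edgeR adjusted p = 0.000478). Both genes stood out in fresh CD5hi cells and were low in the other 3 groups. Selp, the adhesion molecule P-selectin, was low in fresh CD5lo cells instead, at 1.16 CPM in rested CD5hi, 0.963 CPM in rested CD5lo, 1.24 CPM in fresh CD5hi and 0.167 CPM in fresh CD5lo cells (interaction -2.62; edgeR adjusted p = 0.000614). Lama5, a laminin chain, stood out in rested CD5hi cells, at 5.42 CPM against 0.967 CPM in rested CD5lo, 0.109 CPM in fresh CD5hi and 0.131 CPM in fresh CD5lo cells (interaction 2.79; edgeR adjusted p = 0.0154). D630039A03Rik had the pattern of Itih5 and Mtap6, at 66.3 CPM in rested CD5hi, 20.3 CPM in rested CD5lo, 2.40 CPM in fresh CD5hi and 0.166 CPM in fresh CD5lo cells (interaction -2.08). Tgm2, a transglutaminase, was at 0 in all rested CD5lo libraries and at 0.0748 CPM in rested CD5hi cells, so its fitted interaction depends on the prior count and is not given.

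The Treg libraries, which took no part in the fit, were set beside the 16 naive libraries. Treg levels were scaled together with all 20 libraries of the series, and naive levels with the 16 alone. Of the 241 genes with a negative interaction, all 4 Treg libraries lay above all 16 naive libraries for 89 and below all of them for 39. For the 113 with a positive interaction they lay above for 25 and below for 31, and over all 12797 genes above for 2092 and below for 1484. The difference between these counts was not tested.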
